A study of Mus musculus with 16 samples.

Results

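The 81 gene symbols described here are those of the proteins of the cytoplasmic ribosome. They are made of Rpl or Rps and a number, with or without a closing a, x or l, together with Rplp0, Rplp1, Rplp2 and Rpsa, and were picked by name alone from the 24421 symbols of the count table. Of them, 49 belong to the large subunit by name and 32 to the small subunit. RNA of lumbar dorsal root ganglia, where the cell bodies of sensory neurons lie next to the spinal cord, was sequenced by a polyA method in C57BL/6 embryos of embryonic day 13.5. The 4 groups hold 4 libraries each, named by group and number (KO_alpha3 42, 50, 75 and 81, KO_beta 398, 402, 406 and 411, WT_beta 399, 401, 410 and 415, WT_alpha3 45, 54, 55 and 79), and values of a group are listed in that order. KO_alpha3 embryos lack importin alpha3, KO_beta embryos lack the 3′ untranslated region of importin beta 1, and WT_beta and WT_alpha3 are the wild types labelled with each line. The design text states that all 8 wild types served both projects because of a sex effect. No promoter, Cre driver, litter or zygosity beyond the genotype labels is given, and separate embryos are not named as the source of the libraries of a group. The p-values therefore measure only the spread between these samples, which may be technical.

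A ribosome joins a small subunit, which reads the messenger RNA, to a large subunit, which forms the peptide bonds. Its proteins are needed in matching amounts, and many of their messenger RNAs begin with a C followed by a run of pyrimidines, the terminal oligopyrimidine tract, through which growth signals passing through mTOR set how much of the RNA is translated. Growing and dividing cells make many ribosomes. In mouse embryos the first red blood cells make beta-h1 globin (Hbb-bh1) before epsilon-y globin (Hbb-y), so that the log2 ratio of Hbb-bh1 to Hbb-y counts serves here as a measure of library maturity, with a high ratio on the younger side.

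The starts of 6 members on which the results turn are printed to show the tract: Rps6 and Rplp2 are among the members that follow the globin ratio, Rpl38 follows it less, Rps27 does not pass, Rps27l has the steepest slope and Rpl23 the least spread. Each line gives 15 bases before and 15 bases from an annotated RefSeq transcript start of build GRCm38.p6, with capitals for the tract, a C at the start and the C or T bases that follow without a break.
Rps6: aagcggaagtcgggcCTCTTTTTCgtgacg
Rplp2: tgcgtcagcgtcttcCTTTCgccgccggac
Rpl38: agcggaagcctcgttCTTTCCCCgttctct
Rps27: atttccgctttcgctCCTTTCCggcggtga
Rps27l: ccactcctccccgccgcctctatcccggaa
Rpl23: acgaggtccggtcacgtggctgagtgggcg
These lie at chr4:86857353-86857382 (- strand) for Rps6, chr7:141447636-141447665 (+ strand) for Rplp2, chr11:114668565-114668594 (+ strand) for Rpl38, chr3:90213634-90213663 (- strand) for Rps27, chr9:66946071-66946100 (+ strand) for the first listed start of Rps27l and chr11:97782425-97782454 (- strand) for Rpl23. A tract of at least 5 bases at the annotated start was found in 13 of the 60 members with a start in the RefSeq promoter table (21.7%), against 813 of all 27025 genes in it (3.01%). It was found in 2 of 30 genes of translation initiation, and in none of 11 elongation, 41 ribosome biogenesis and 68 mitochondrial ribosomal protein genes with a start. Annotated starts can lie a few bases from the true ones, so the words CTTTC and CTTTTC, neither of which contains the other, were also sought on the gene's strand within 20 bases of the start. They stood at 21 of 72 member starts (29.2%), against 6.75% of all 32851 starts, while on the other strand the shares were 5.56% for members and 6.01% for all starts. These are matches of letters and not mapped starts.

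Library totals ran from 19682595 to 26873361 counts. Kpna4, the gene of importin alpha3, stood between 0.619 and 1.13 CPM (counts per size-matched library, with TMM factors) in KO_alpha3 libraries and between 69.5 and 81.4 CPM in the others. The KO_beta genotype is not checked here, since counts per gene do not single out the deleted part of Kpnb1, the gene of importin beta 1. The log2 fold change of Kpnb1 in KO_beta was 0.28 (edgeR adjusted p = 0.932). All 23 sensory neuron markers passed the filter on low counts, with summed levels between 16061 and 21159.9 CPM in KO_alpha3, 18656 and 21079 CPM in KO_beta, 14712 and 18618 CPM in WT_beta, and 11125 and 21929 CPM in WT_alpha3. Summed liver markers reached 5393 CPM in 1 WT_beta library, against 54.9 to 671 CPM in the other 15. Y-linked transcripts were above 100 CPM in sum in all KO_beta and WT_alpha3 libraries and in KO_alpha3 50 and 75, and at most 1.15 CPM in all WT_beta libraries and in KO_alpha3 42 and 81. Sex and group are therefore fully confounded between WT_beta and WT_alpha3 and between KO_beta and WT_beta, and KO_alpha3 is the one group with both.

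Of the 81 members, 78 passed the filter. The 3 that did not were Rpl10l, known from the testis, Rpl39l, also a testis gene, and Rpl3l, a heart and skeletal muscle gene. Rpl10l had 1 count in KO_alpha3 81 and 0 in the other 15 libraries. Rpl39l counts were 1, 1, 1 and 6 in KO_alpha3, 0, 5, 2 and 0 in KO_beta, 2, 3, 2 and 4 in WT_beta and 3, 1, 0 and 1 in WT_alpha3, and Rpl3l had at most 2 counts in any library. At this depth no group difference could be seen in these 3. The remaining members with a paralogue's name, Rps27l and Rps4l, were well counted, and RefSeq lists Rps4l as a transcribed pseudogene.

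Per kilobase of coding sequence most members were abundant. Among the 80 with a coding length, the mean level over the 16 libraries had a median of 775 CPM per kb, and 72 lay between 413.5 and 9417 CPM per kb. Rpl41, which encodes the smallest ribosomal protein, was highest at 9417 CPM per kb. Rps24 at 1565 and Rps26 at 1481 CPM per kb followed, both of the small subunit. Reads of untranslated parts can add to the counts while only the coding length divides them, so this order is not one of transcript abundance. The coding part is 75 of 437 bases of the transcript in Rpl41 and 399 of 1613 in Rps24. No member lay between 100 and 400 CPM per kb, and 8 lay under 100. The 3 lowest were Rpl10l at 0.00407, Rpl3l at 0.0266 and Rpl39l at 0.550 CPM per kb. Above them came Rpl26 at 1.47, Rps27 at 8.32, Rpl30 at 19.4, Rpl34 at 40.9 and Rps27l at 84.5 CPM per kb. Of the transcripts of Rps27, Rpl30, Rpl26 and Rpl34, 98.7%, 76.4%, 71.3% and 50.6% of the 50-base words were also found in other genes, nearly all of them pseudogenes, so reads could be shared with those copies and these levels are uncertain. The 72 members at 400 CPM per kb or more had a median of 58.7%, and the part of read sharing in the levels was not tested.

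**Figure D1:**
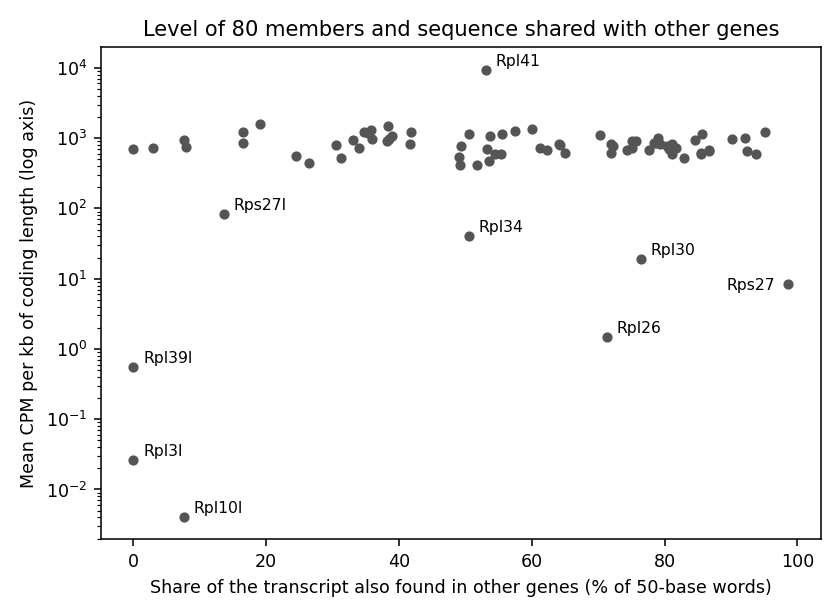
Mean CPM per kilobase of coding sequence over 16 libraries (log axis) against the share of each transcript's 50-base words found in another gene (%), 1 point per member with a coding length (80). The 72 points at 413.5 CPM per kb or more spread over the whole range of shares, and the 8 low members and Rpl41 are named.

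Together the members took up a few percent of all counts. Their share was 3.61, 2.86, 3.15 and 3.70% in KO_alpha3, 2.92, 3.15, 3.45 and 2.51% in KO_beta, 3.60, 3.30, 2.98 and 2.98% in WT_beta and 3.71, 2.65, 2.64 and 4.201% in WT_alpha3. The groups overlapped, and WT_alpha3 held both the highest share and the next to lowest. Means were 3.33% ± 0.397 in KO_alpha3, 3.004% ± 0.398 in KO_beta, 3.22% ± 0.297 in WT_beta and 3.30% ± 0.782 in WT_alpha3 (SD, n = 4 each). Counting error alone adds little: the 95% exact binomial interval of KO_alpha3 50, for example, was 2.85% to 2.86%, and such intervals cover counting error only. In a bulk library, fewer cells of a type and less RNA per cell cannot be told apart.

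**Figure D2:**
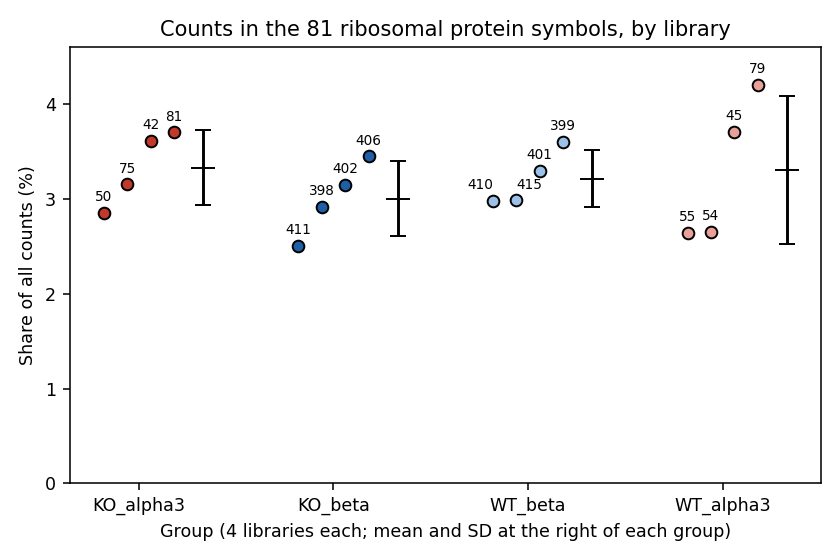
Share of all counts (%) in the 81 ribosomal protein symbols, 1 point per library with its number, with the mean and SD to the right of each group of 4. The 4 groups overlap, and the widest spread is within WT_alpha3, between 2.64% and 4.201%.

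The members varied together from library to library. Over the 16 libraries the median SD of a member's log2 CPM was 0.195, against 0.221 for all 15641 genes tested, and it was 0.0577 once the median of the 78 members in the library was subtracted. Hbb-bh1 and Hbb-y are 2 embryonic beta-like globins. The ratio of large to small subunit counts was 1.584 to 1.615 in the 5 libraries with a log2 Hbb-bh1 to Hbb-y ratio above -5.5. In the other 11 it was 1.616 to 1.671. The 2 ranges did not overlap but nearly touched, with KO_alpha3 42 at 1.6154 and KO_beta 398 at 1.6161. Rpl26, a large subunit protein at the exit tunnel that is also known to bind p53 messenger RNA, had the largest SD at 0.374, but on 0.377 to 1.28 CPM. Next came Rps27l at 0.341, a known p53 target, and Rps14 of the small subunit at 0.257. The smallest SDs were those of 3 large subunit genes, Rpl23 at 0.127, Rpl15 at 0.131 and Rpl21 at 0.135.

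No member was called between KO_alpha3 and the 8 wild types. The question is whether loss of importin alpha3, a carrier that brings proteins into the nucleus, goes with another level of the ribosomal protein genes. In edgeR's quasi-likelihood test with Benjamini-Hochberg adjustment over all 15641 genes, 0 of 78 passed an adjusted p of 0.05, 0 had an unadjusted p under 0.05, and DESeq2 also called 0. The background was 0.00639% of all genes called, which is 1 gene, Kpna4 itself. By edgeR 1696 of the 15641 genes had an unadjusted p under 0.05. The median log2 fold change was 0.07 over the members, with 75 of 78 above 0 and values between -0.11 and 0.21, and -0.01 over all genes tested. Of all 15641 genes 7594 were above 0. The members varied together from library to library, so their signs are not separate results. The 3 members with the lowest p were Rpl30, Rps4l and Rps3, described next.

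Rpl30, a large subunit protein at the bridge between the subunits, stood at 8.31, 6.20, 6.37 and 9.06 CPM in KO_alpha3, 5.69, 6.60, 7.34 and 5.48 CPM in KO_beta, 7.02, 6.42, 6.03 and 6.94 CPM in WT_beta and 7.37, 5.75, 6.24 and 6.00 CPM in WT_alpha3. The 2 high KO_alpha3 values, in libraries 42 and 81, were above every wild type and the other 2 lay within the wild types, so the groups overlapped. Its log2 fold change was 0.21 ± 0.12 (SE, edgeR adjusted p = 0.566). Rps4l stood at 68.3, 56.6, 57.1 and 66.0 CPM in KO_alpha3, 75.5, 74.8, 75.8 and 62.5 CPM in KO_beta, 64.6, 67.5, 66.7 and 65.4 CPM in WT_beta and 74.9, 67.0, 58.5 and 70.5 CPM in WT_alpha3. KO_alpha3 50 and 75 were under all wild types and 42 and 81 lay among them, with a log2 fold change of -0.11 ± 0.07 (SE, edgeR adjusted p = 0.637). Rps3, at the entry of the messenger RNA channel of the small subunit, stood at 657, 459, 542 and 668 CPM in KO_alpha3, 482, 521, 556 and 428 CPM in KO_beta, 586, 521, 493 and 492 CPM in WT_beta and 605, 421, 429 and 633 CPM in WT_alpha3. Its highest values were in KO_alpha3 42 and 81 and WT_alpha3 45 and 79, and the log2 fold change was 0.15 ± 0.13 (SE, edgeR adjusted p = 0.713).

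KO_beta showed no called member either. The comparison asks the same of importin beta 1, whose messenger RNA is carried along axons by its 3′ untranslated region. Against the same 8 wild types, 0 of 78 members passed, 0 had an unadjusted p under 0.05 and DESeq2 called 0, with a background of 0% of genes called by edgeR (0 of 15641, with 349 at an unadjusted p under 0.05). The median log2 fold change was -0.08, with 76 of 78 under 0 and values between -0.23 and 0.12, against 0.00 over all genes. Of all 15641 genes 7949 were under 0. Rps4l, whose 4 KO_beta values are given above, had 0.11 ± 0.07 (SE). Rps23, a protein of the decoding centre, stood at 206, 161, 171 and 216 CPM in KO_alpha3, 162, 167, 184 and 136 CPM in KO_beta, 187, 173, 161 and 167 CPM in WT_beta and 212, 152, 151 and 232 CPM in WT_alpha3, with a log2 fold change of -0.15 ± 0.12 (SE). Rpl19, a large subunit protein that reaches across to the small one, stood at 547, 448, 479 and 589 CPM in KO_alpha3, 419.7, 454, 512 and 383 CPM in KO_beta, 496, 453, 434 and 458 CPM in WT_beta and 519, 431, 429.7 and 624 CPM in WT_alpha3, with -0.12 ± 0.11 (SE). The edgeR adjusted p of all 3 was 0.932. In each of Rps23 and Rpl19, KO_beta 411 was the lowest of all 16 libraries and KO_beta 406 lay among the wild types. The medians of the 2 knockout comparisons have opposite signs. Both comparisons use the same 8 wild types, so these medians are not 2 independent results.

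No member was called between the wild types of the 2 lines. For WT_beta against WT_alpha3, 0 of 78 passed in edgeR, 0 had an unadjusted p under 0.05 and DESeq2 called 0. The background was 0.0192% (3 genes), with 824 of 15641 genes at an unadjusted p under 0.05 in edgeR. The median log2 fold change was -0.07, and -0.02 over all genes. It was -0.34 with a yes or no covariate for the presence of Y-linked transcripts and 0.05 without WT_alpha3 79. By edgeR 0 members were called in either. The covariate and the 2 wild-type groups cannot be told apart. Summed Y-linked transcripts are at most 1.15 CPM in all WT_beta and above 100 CPM in all WT_alpha3 libraries. The covariate's effect comes from KO_alpha3, where 42 and 81 (without) and 50 and 75 (with) also differ in the globin ratio. The ratio is -5.10 and -3.71 in 42 and 81, against -6.81 and -6.03 in 50 and 75. Rpl29, a large subunit protein, stood at 425, 404, 356 and 343 CPM in WT_beta and 446, 417, 377 and 527 CPM in WT_alpha3, a log2 fold change of -0.21 ± 0.11 (SE, edgeR adjusted p = 0.993). Rps26, of the small subunit, stood at 527, 511, 445 and 411 CPM in WT_beta and 566, 498, 456 and 685 CPM in WT_alpha3, with -0.22 ± 0.13 (SE, edgeR adjusted p = 0.994). Rpl38, which mouse embryos need to translate Hox messenger RNAs, stood at 132, 113, 114 and 112 CPM in WT_beta and 137, 121, 118 and 162 CPM in WT_alpha3, with -0.19 ± 0.12 (SE, edgeR adjusted p = 1.00). In all 3, WT_alpha3 79 was the highest wild type and the groups overlapped.

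The difference between the KO_alpha3 effect and the KO_beta effect, each against its own wild types, called 0 of 78 members in edgeR, with 0 at an unadjusted p under 0.05 and 0 in DESeq2. The background was 0.00639% (1 gene), with 191 of 15641 genes at an unadjusted p under 0.05 in edgeR. The median difference was 0.08 in log2 over the members and -0.03 over all genes. With the yes or no covariate for Y-linked transcripts the median was -0.34 and Rpl30 turned to -0.41. Again 0 were called by edgeR, with 1 at an unadjusted p under 0.05, and the same confounding holds. Rps4l had -0.25 ± 0.12, Rpl30 0.31 ± 0.21 and Rps27, whose zinc finger protein sits on the small subunit, -0.27 ± 0.21 (SE, edgeR adjusted p = 0.996 for each). Rps27 stood at 1.998, 2.19, 1.90 and 1.92 CPM in KO_alpha3, 2.34, 2.20, 2.14 and 2.33 CPM in KO_beta, 1.70, 2.20, 1.83 and 2.25 CPM in WT_beta and 2.16, 1.82, 2.11 and 2.46 CPM in WT_alpha3, and its groups overlapped. A p above the threshold in these 4 comparisons does not show equal levels.

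Across the libraries, the ribosomal protein genes tended to be higher where the globins were on the younger side. The log2 ratio of Hbb-bh1 to Hbb-y was -5.10, -6.81, -6.03 and -3.71 in KO_alpha3, -6.06, -6.35, -6.45 and -7.00 in KO_beta, -5.17, -6.04, -6.89 and -6.63 in WT_beta and -4.79, -6.93, -6.71 and -4.10 in WT_alpha3. Hbb-bh1 had 49 to 6678 counts, which gives the ratio a counting error of 0.018 to 0.207. A level for each library, the median over the 78 members of log2 CPM minus the member's mean, was 0.18, -0.11, -0.000226 and 0.24 in KO_alpha3, -0.12, -0.02, 0.13 and -0.32 in KO_beta, 0.13, 0.00206, -0.12 and -0.11 in WT_beta and 0.16, -0.19, -0.21 and 0.36 in WT_alpha3. In the 5 libraries with a ratio above -5.5 (KO_alpha3 42 and 81, WT_beta 399, WT_alpha3 45 and 79) the share of counts in members was 3.60% to 4.201%, and in the 11 others 2.51% to 3.45%, without overlap. KO_beta 406 departed most from a straight line, 0.21 above it, and KO_beta 411 lay 0.15 under it.

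**Figure D3:**
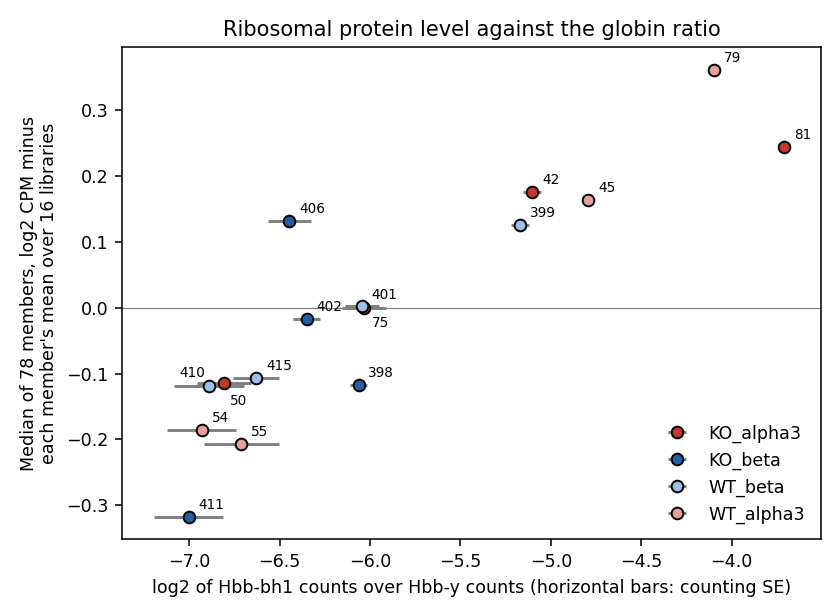
Level of the ribosomal protein genes in each of the 16 libraries (median over 78 members of log2 CPM minus each member's mean) against the log2 ratio of Hbb-bh1 to Hbb-y counts. Bars are the counting SE of the ratio, numbers are library numbers, and the 5 libraries above -5.5 all lie above 0.12.

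In a fit with the 4 groups, 75 of 78 members rose with the ratio and 0 fell (edgeR quasi-likelihood test, Benjamini-Hochberg adjustment over all 15641 genes), 76 had an unadjusted p under 0.05 and all 78 slopes were positive. The background was wide: 46.7% of all genes were called in either direction, 20.5% higher and 26.1% lower. By edgeR 8408 of the 15641 genes had an unadjusted p under 0.05, and 7620 had a positive slope. The members' share called higher was 96.2%. Their median slope was 0.16 log2 units per unit of log2 ratio, a 1.12-fold step, against a median of 0.00 over all genes tested (-0.00498). Of the large subunit, 44 of 46 tested members rose, with a median slope of 0.16, and of the small subunit 31 of 32, with a median of 0.18. The called slopes ran between 0.08 and 0.32, with SEs of 0.0249 to 0.0436 and a largest adjusted p of 0.0400.

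**Figure D4:**
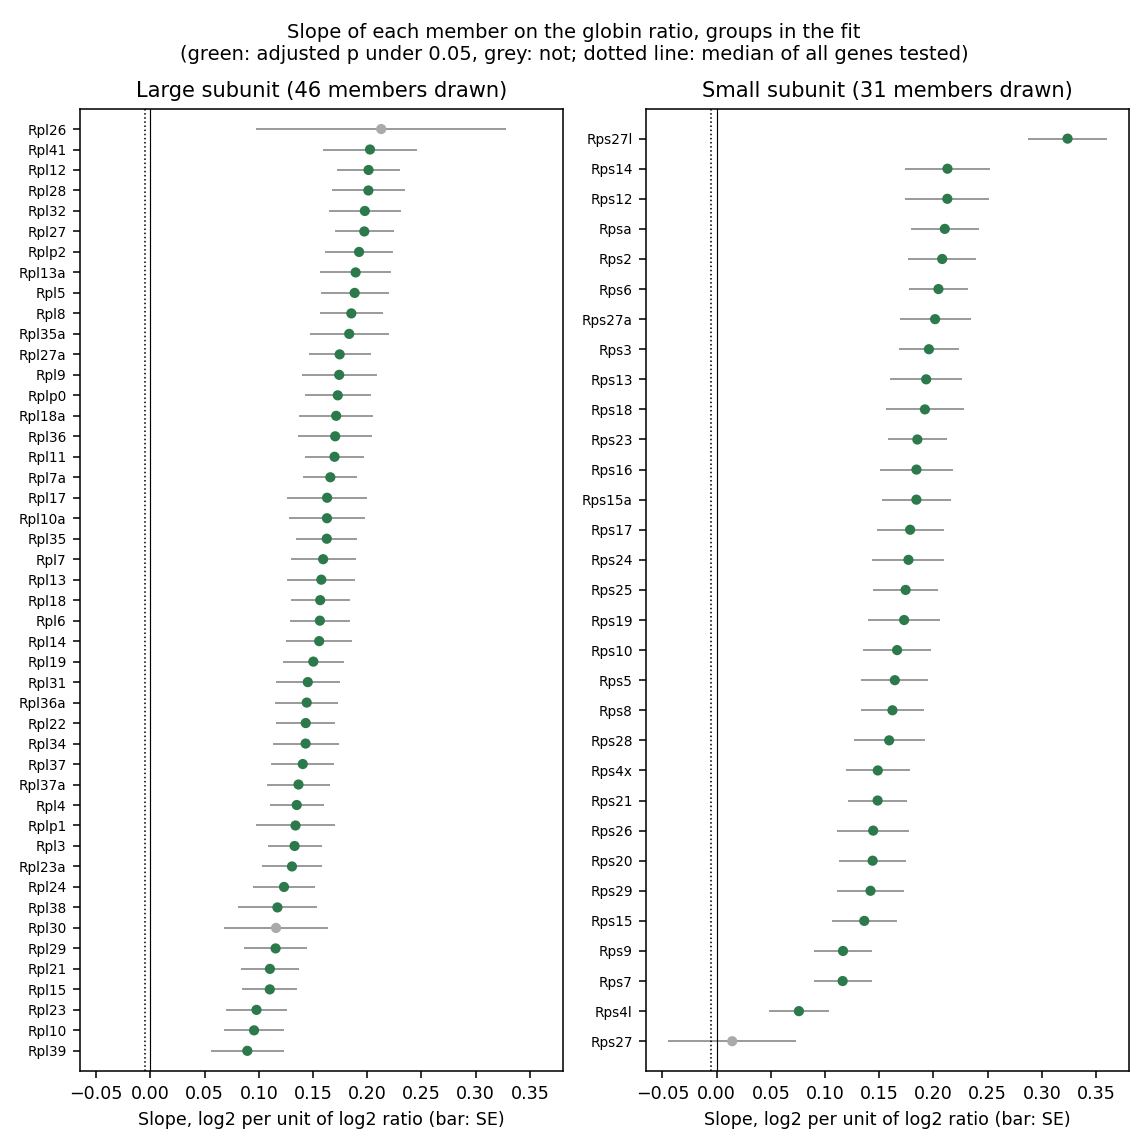
Slope of 77 of the 78 tested members on the globin ratio (log2 per unit of log2 ratio, bars are the SE), large subunit on the left and small subunit on the right. Green points have an edgeR adjusted p under 0.05, and the 3 grey ones are Rpl26, Rpl30 and Rps27, while the dotted line is the median of all genes.

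The steepest slope was that of Rps27l. It stood at 32.7, 20.5, 25.6 and 36.4 CPM in KO_alpha3, 23.2, 25.8, 27.4 and 18.2 CPM in KO_beta, 32.0, 27.3, 23.8 and 23.0 CPM in WT_beta and 32.8, 18.8, 19.4 and 39.0 CPM in WT_alpha3. The 5 highest values were those of the 5 libraries with a ratio above -5.5, and the lowest was KO_beta 411. Its slope was 0.32 ± 0.04 (SE, edgeR adjusted p = 2.68e-05). Rps6, the small subunit protein that S6 kinase phosphorylates downstream of mTOR, stood at 842, 635, 721 and 897 CPM in KO_alpha3, 648, 674, 743 and 546 CPM in KO_beta, 809.6, 712, 645 and 632 CPM in WT_beta and 824, 587, 582 and 902 CPM in WT_alpha3. Again the 5 highest were the 5 libraries above -5.5, and the slope was 0.20 ± 0.03 (SE, edgeR adjusted p = 7.90e-05).

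Around the messenger RNA channel and the decoding centre of the small subunit, Rps3 (0.20), Rps23 (0.19) and Rps2 (0.21) rose. Rpsa, also known as the laminin receptor precursor, had a slope of 0.21 ± 0.03 (SE) and stood at 1016, 862, 925 and 1132 CPM in KO_alpha3, 906, 909.8, 968 and 744 CPM in KO_beta, 1113, 923, 823 and 787 CPM in WT_beta and 1063, 851, 828 and 1438 CPM in WT_alpha3. WT_alpha3 79 was its highest library and KO_beta 411 its lowest. In the large subunit Rpl27 (0.20), Rpl7a (0.17) and Rpl12 (0.20), which holds the stalk that recruits elongation factors, were among the 10 with the lowest p. Of the stalk proteins, Rplp2 had 0.19 ± 0.03, Rplp0 0.17 ± 0.03 and Rplp1 0.13 ± 0.04 (SE). Rpl5 and Rpl11, which carry 5S ribosomal RNA and can bind Mdm2, had 0.19 ± 0.03 and 0.17 ± 0.03 (SE). The edgeR adjusted p was at most 0.00779 for each member named in this paragraph.

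**Figure D5:**
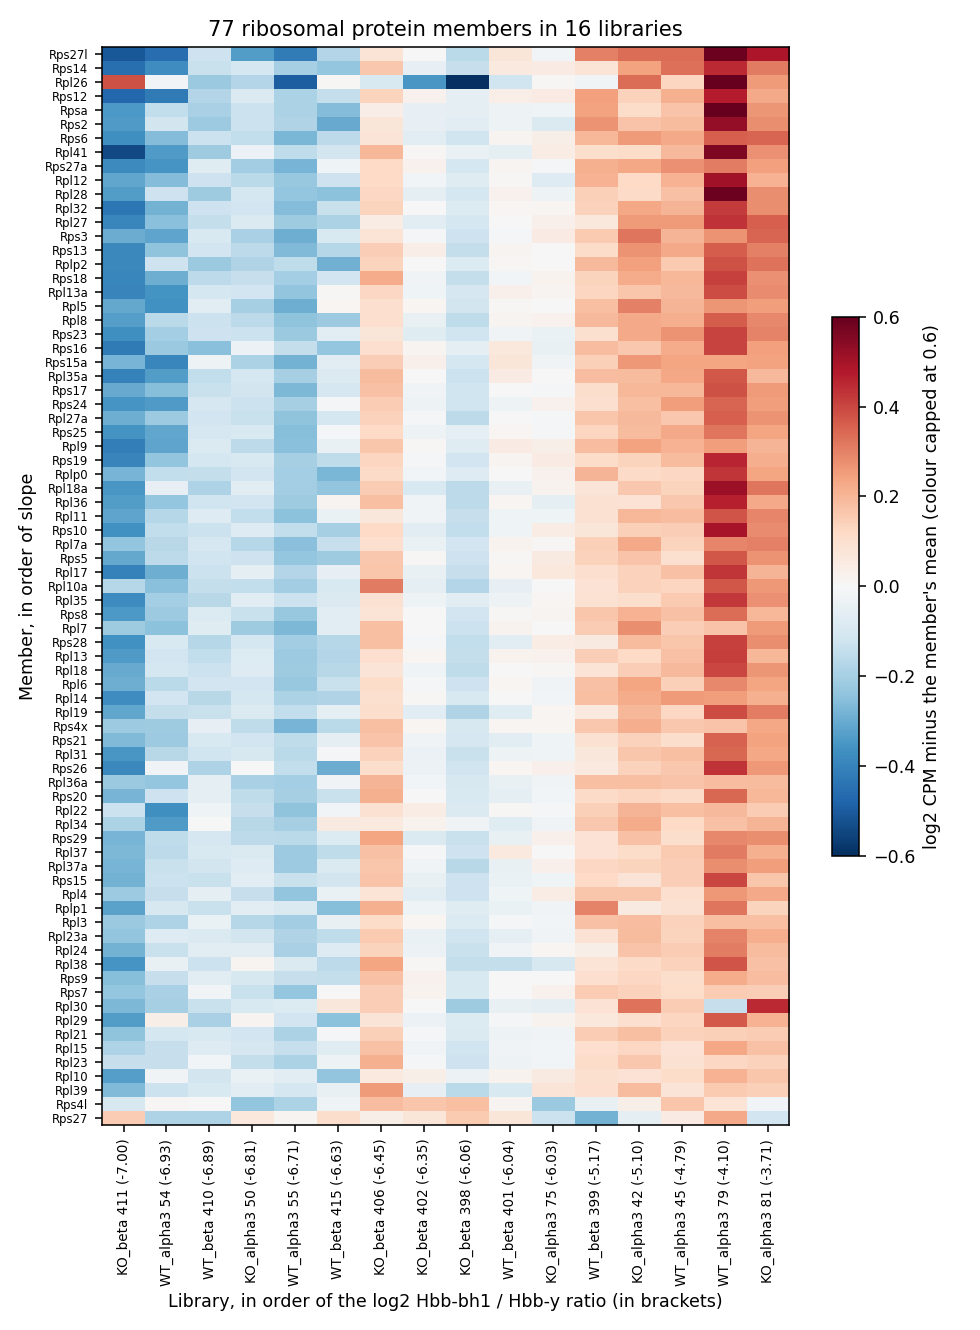
log2 CPM of 77 of the 78 tested members minus each member's mean (colour, capped at 0.6 either way), members in order of slope and the 16 libraries in order of the globin ratio. Most rows go together from blue on the left to red on the right, and Rpl26, Rpl30, Rps4l and Rps27 depart from that pattern.

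Some members followed the ratio less or not at all. Rps4l had the lowest called slope at 0.08 ± 0.03 (SE, edgeR adjusted p = 0.0340), then Rpl39, an X-linked gene whose protein lines the exit tunnel, at 0.09 ± 0.03 (SE, edgeR adjusted p = 0.0400), and the X-linked Rpl10 at 0.10 ± 0.03 (SE, edgeR adjusted p = 0.0113). The other X-linked members, Rpl36a and Rps4x, had slopes of 0.14 and 0.15. The 3 members that did not pass were Rpl30 with 0.12 ± 0.05 (SE, edgeR adjusted p = 0.0620), Rpl26 with 0.21 ± 0.12 (SE, edgeR adjusted p = 0.145) and Rps27 with 0.01 ± 0.06 (SE, edgeR adjusted p = 0.880). Over 34 alternatives Rpl30 was called higher in 18, Rpl26 in 2 and Rps27 in 0. All 3 are among the low members that share sequence with pseudogenes, as is Rpl34, which was called higher in 30 of the 34. Of the called members, Rpl5 and Rpl10 share 93.8% and 92.1% of their 50-base words with other genes. The shares of Rps27, Rpl30 and Rpl26 are 98.7%, 76.4% and 71.3%. The part of read sharing in the calls was not tested. Among the 13 members with a pyrimidine tract at the annotated start, 12 rose with a median slope of 0.17, and among 44 with a shorter tract or none 43 rose with a median of 0.16. Of the genes whose starts are printed above, Rps6 and Rplp2 carry a tract and rose, Rps27 carries one and did not pass, and Rps27l shows none and had the steepest slope. Rpl38 and Rpl23 had 0.12 ± 0.04 and 0.10 ± 0.03 (SE, edgeR adjusted p = 0.0158 and 0.0108).

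The alpha3 line spans ratios of -6.93 to -3.71 and the beta line -7.00 to -5.17. When each line had its own slope in 1 model, 74 of 78 members rose in the alpha3 line, with a median slope of 0.16, against a background of 21.5% of all genes called higher there. In the beta line the background was 2.37%, and the 2 of 78 members that rose are a share near it. They were Rps2 with 0.32 ± 0.07 (SE, edgeR adjusted p = 0.0326) and Rplp2 with 0.30 ± 0.07 (SE, edgeR adjusted p = 0.0458). Of the 78 slopes there 76 were positive, against 6891 of 15641 genes, and the median was 0.17. An unadjusted edgeR p under 0.05 was reached by 40 members, against 2360 of 15641 genes. The difference of the slopes was called for 0 members by edgeR, with 1 at an unadjusted p under 0.05, Rplp1, whose slope was 0.19 ± 0.09 steeper in the beta line (SE, edgeR adjusted p = 0.270). The background of that difference was 0.895% of genes called. DESeq2 was not run on it.

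Other features of the libraries moved with the ratio. The mean log2 CPM of 34 cell cycle genes was 5.76 to 6.53 in the 5 libraries with a ratio above -5.5 and 4.68 to 5.54 in the other 11, and 34 of 34 rose with the ratio, with a median slope of 0.56. With that mean as a second covariate edgeR called 0 of 78 members, with 0 at an unadjusted p under 0.05 and a median slope of 0.01, and 1 gene of all those tested. Summed globins were 1327 to 9112 CPM in the 5 and 315 to 2926 CPM in the 11. With log2 globin CPM as a second covariate, an alternative chosen after seeing the data, edgeR again called 0 members and 1 gene of all. The members' median slope was 0.12 and 19 had an unadjusted p under 0.05. The count of all genes at that unadjusted p is not given here. Summed sensory neuron markers were 11125 to 17282 CPM in the 5 and 14712 to 21929 CPM in the 11, with 3 of 23 rising and 14 falling. Summed glia markers were 2153 to 3214 CPM in the 5 and 3204 to 4379 CPM in the 11, with 10 of 14 falling. The ratio, cell division and cell makeup moved together in these libraries and cannot be told apart here.

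Within the 11 libraries with a ratio under -5.5, an alternative chosen after seeing the data, 0 members were called by edgeR and 28 had an unadjusted p under 0.05, while 77 of 78 slopes were positive with a median of 0.21. In those libraries edgeR called 115 of all genes higher and 177 lower, and the count of all genes at that unadjusted p is not given here. Without WT_alpha3 45 and 79 and WT_beta 399 and 401, the wild types that held most RNA of other tissues in an earlier analysis of these libraries, 40 members were called and the median was 0.15, in a fit where edgeR called 2018 of all 15687 genes tested higher and 2243 lower. Of these 4, WT_alpha3 45 and 79 and WT_beta 399 are all the wild types with a ratio above -5.5 (-4.79, -4.10 and -5.17), while KO_alpha3 42 and 81, with -5.10 and -3.71, remain, so the wild types lose their high ratios together with that RNA and the 2 cannot be told apart here. Leaving them out also moved the group comparisons, where the median log2 fold change of the members was 0.28 for KO_alpha3 against the remaining wild types and 0.09 for KO_beta. In KO_beta Rps23 and Rpl19 turned to 0.04 and 0.02. By edgeR 0 members were called in either, with 48 of 78 at an unadjusted p under 0.05 for KO_alpha3 and 0 for KO_beta, against 3589 and 177 of all 15687 genes. With the globin ratio as a covariate the medians were -0.00177 for KO_alpha3 and 0.01 for KO_beta, again with 0 called by edgeR and 1 member at an unadjusted p under 0.05 in each.

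Genes that build and serve the ribosome followed the ratio to differing extents in the same edgeR fit. Of 48 tested ribosome biogenesis genes 37 rose and 0 fell, with a median slope of 0.12. Mybbp1a, a nucleolar protein, had 0.24 ± 0.02 and Gar1, of the RNA pseudouridylation complex, 0.32 ± 0.03 (SE). Of 37 initiation factors 23 rose and 1, the helicase Eif4a2, fell, with a median of 0.08. Eif2s1, a subunit of the factor that brings the initiator tRNA, had 0.17 ± 0.02 and Eif5 0.15 ± 0.02 (SE).

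Of 14 elongation genes 8 rose and 2 fell, with a median slope of 0.10. The 2 that fell were Eif5a2 at -0.30 ± 0.04 and Eef1a2, the elongation factor form of mature neurons and muscle, at -0.54 ± 0.10 (SE), while Btf3, of the nascent chain complex, had 0.18 ± 0.02 (SE). Of 77 mitochondrial ribosomal protein genes 29 rose and 0 fell, with a median of 0.06, led by Mrpl18 at 0.18 ± 0.03 and Mrps30 at 0.12 ± 0.02 (SE). All 6 tested ribosomal protein genes whose names fall outside the rule rose, with a median of 0.13, among them Rpl7l1 and Rps3a1 with 0.16 each. Of 19 Myc and mTOR pathway genes 4 rose and 5 fell, with a median of 0.00 (-0.00389). Mycl, a Myc relative, had 0.83 ± 0.14 and the kinase gene Rps6ka3 -0.28 ± 0.06 (SE). The shares of all genes called higher and lower, 20.5% and 26.1%, are the background of each of these counts.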

How the data were processed

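The authors deposited whole-number counts per gene symbol, not normalized. The submitters' processing notes name TopHat2 2.0.10 and HTSeq 0.6.1p1 on build mm10, besides DESeq2 1.6.3, bcl2fastq 2.17.1.14 and cutadapt, with no order. Annotation and strand setting were not given in the sources at hand. Reads of overlapping genes and of near-identical copies are therefore uncertain. No column lacked a sample (0).

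Counts were tested with edgeR 4.0.16 in R 4.3.3 (TMM scaling, filterByExpr with a minimum count of 10 and a total of 15, 15641 genes kept, quasi-likelihood test, Benjamini-Hochberg at 0.05). The KO comparisons used a fit with 3 groups and the others a fit with 4, with the globin ratio as a covariate for slopes. DESeq2 1.42.0 was an alternative. An SE is the log2 value over the root of F. Log2 CPM used a prior count of 2. Sequences and positions are from RefSeq (GRCm38.p6), matched by symbol for all 81 members, 60 of which had a promoter. Coding lengths are from GENCODE.

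Members and lists were chosen with earlier results of these data known. Named members are up to 10 called, or otherwise the 3 with the lowest p, in each comparison, the 3 at each end of level and of spread, and the paralogues by name. From each other list the 2 with the lowest p are named. Rpl5, Rpl11, Rplp0, Rplp1, Rplp2, Rpl39, Rpl10, Rpl36a, Rps4x, Rpl34, Eif4a2 and Eef1a2 were named after their values were seen. Fits were tested on simulated data. For 1 member, counted in all totals, no value of its own is reported here.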

Additional observations from a re-analysis of the deposited data

Results flagged for a closer look

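For the 23 named members that passed the filter, and for the members' share of counts and their median level, each of the 4 groups of 4 libraries was looked at. In 3 of these 100 sets of values 1 library lay far from the other 3 of its group, and chance gives about 1 in 20. Rps4l stood at 62.5 CPM in KO_beta 411, against 74.8, 75.5 and 75.8 CPM in the other KO_beta libraries. Rpl38 stood at 132 CPM in WT_beta 399, against 112, 113 and 114 CPM in the other WT_beta libraries. Rpl23 stood at 556 CPM in WT_beta 399, against 504, 505 and 509 CPM in the others. WT_beta 399 is the WT_beta library with the highest globin ratio, and KO_beta 411 is the library with the lowest ratio of all 16.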

How the results depend on the processing

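No member was called in any of 27 alternatives for each knockout against the wild types, or in any of 26 for WT_beta against WT_alpha3 and for the difference of the knockout effects. DESeq2 was itself an alternative in each set, and all the others used edgeR. Of 36 alternatives in all, 6 were chosen after seeing the data, and these concern the slope on the globin ratio. Without WT_alpha3 45 and 79 and WT_beta 399 and 401, the members' median was 0.276 for KO_alpha3 against wild types and 0.288 for the difference of the knockout effects, and Rps23 and Rpl19 in KO_beta turned to 0.0413 and 0.0161. In the same setting 40 members were called on the globin ratio, beside the counts of all genes called that are given above. With the yes or no covariate for Y-linked transcripts, the median was -0.338 for WT_beta against WT_alpha3. It was also -0.338 for the difference of the knockout effects, where Rpl30 turned to -0.41. On the globin ratio, 0 members were called with the cell cycle mean as a second covariate, 0 with summed globins, 0 in the 11 libraries under -5.5, and 2 in the beta line alone. The median slope was 0.0129 with the cell cycle mean, 0.124 with summed globins, 0.205 under -5.5 and 0.202 without the 2 libraries farthest from the median ratio. The cause of each was not tested.

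Other scalings and filters gave 75 or 76 called slopes, as did DESeq2 (76). The yes or no covariate for Y-linked transcripts gave 72, liver markers 75 and markers of other tissues 73. In the main fit 20.5% of all genes were called higher. The shares of all genes called under the alternatives of this paragraph are not given here. Of 624 values of named members under alternatives, 587 kept their direction and side of the threshold, 34 lost the call and 3 changed sign. Leaving out 1 library at a time, the members' median ranged over 0.0143 to 0.145 for KO_alpha3, -0.171 to -0.0143 for KO_beta, -0.157 to 0.0530 for WT_beta against WT_alpha3 (positive without WT_alpha3 79), 0.00220 to 0.237 for the difference of the knockout effects and 0.164 to 0.211 for the slope, with 0 members called in each group comparison and 74 to 76 on the ratio. No paired analysis was possible because the groups share no replicate number. Depth limits Rpl10l, Rpl39l, Rpl3l and Rpl26, whose counts are few.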
